A study of Mus musculus with 6 samples.

Results

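CD34+Flt3hi LSK cells were compared with CD34-Flt3- LSK cells across 18193 genes, using 4 of the 6 expression arrays of the series. LSK cells are the lineage-negative, Kit-positive and Sca1-positive cells of the bone marrow. They were sorted on CD34 and Flt3 from adult mice 10 to 14 weeks old, and 2 arrays were made of CD34-Flt3- cells, 2 of CD34+Flt3hi cells and 2 of CD34+Flt3- cells. The last group served to estimate the spread and to place each gene between the ends of the span. No group carried an engineered allele or a treatment in the labels, and strain, sex and the number of mice per array are not given in the sources used here. The series set out to find expression differences between LSK subsets that differ in function. The groups were taken as labelled, and the genes were all those with a probe set that names 1 gene, each read from its probe set with the highest mean over the 6 arrays.

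In the adult mouse, the CD34-Flt3- fraction of LSK cells holds most of the long-term stem cells, which are largely quiescent. Cells that gain CD34 and then Flt3 lose lasting self-renewal and divide more. The fraction with high Flt3 holds lymphoid-primed multipotent progenitors, which give rise to lymphocytes, granulocytes and monocytes and have little remaining capacity to form megakaryocytes and erythroid cells. In sorted populations measured in bulk, fewer cells of a type and less RNA per cell cannot be told apart.

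Values are log2 intensities, and a difference is CD34+Flt3hi minus CD34-Flt3-. Differences were tested with limma over all genes and adjusted by Benjamini and Hochberg, with a threshold of 0.05, and in what follows a gene rose or fell only if it passed. Background, the 90th percentile of control probe sets for bacterial genes, lay at 4.50, and where a group's mean lay below it the fold is given as "at least", computed against background. The arrays had median linear intensities between 29.7 and 31.4. The CD34-Flt3- arrays differed from each other over 2-fold in 1352 genes and the CD34+Flt3hi arrays in 112, with r across genes of 0.969 and 0.990. The 3 prime actin control probe set read 7693 and 7368 in CD34-Flt3- cells and 12426 and 12814 in CD34+Flt3hi cells, while the 3 prime Gapdh control read 7277 and 6530 against 7446 and 7671. For Gapdh, the ratio of 3 prime to 5 prime signal was 5.04 and 6.34 against 6.59 and 8.42. For actin it was 3.58 and 5.55 against 3.69 and 3.79, highest on CD34-Flt3- replicate 2. The 3 prime BioB control was also highest on that array, at 1859 and 3470 against 1846 and 1636. The part of these readings in the results was not tested. The titles carry codes of unstated meaning, here A, B and C. Replicate 2 of every group has code A, CD34+Flt3hi replicate 1 has code B and CD34-Flt3- replicate 1 has code C, so code A alone gives a difference within a code, from 1 array against 1. Whether the paired arrays of a group hold cells of different mice or of different sorts is not labelled, so the p-values reflect spread among arrays alone, and that spread may be technical.

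Across the span, 1112 genes passed (6.11% of those tested). Of these 476 rose in CD34+Flt3hi cells (2.62%) and 636 fell (3.5%). The median size of the change was 1.57 among the rises and -1.56 among the falls, against a median of -0.07 over all genes, and 1021 changed at least 2-fold. All 1112 genes had arrays that kept the groups apart without overlap, and so did 47.9% of all genes tested. In 63 of the rises the CD34-Flt3- mean lay below background, and in 143 of the falls the CD34+Flt3hi mean did. Of the 1112 genes, 641 had several probe sets, and in 188 of these another probe set differed in the opposite direction. In a fit over all probe sets, such an opposite probe set passed in 1 gene. The count was 294 without CD34+Flt3hi replicate 1 and 271 without the other array of that group, fits in which the array that is left is assumed to vary like the other groups. It was 1918 without CD34-Flt3- replicate 1 and 1382 without the other array of that group, and 216 genes (89 higher, 127 lower) passed in each of these 4 fits. With each array centred on its median, the median of all genes moved to 0.04 and 51.5% of 1201 calls were rises, and with quantile normalization repeated 50.2% of 1210 were, against 42.8% as reported.

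**Figure D1:**
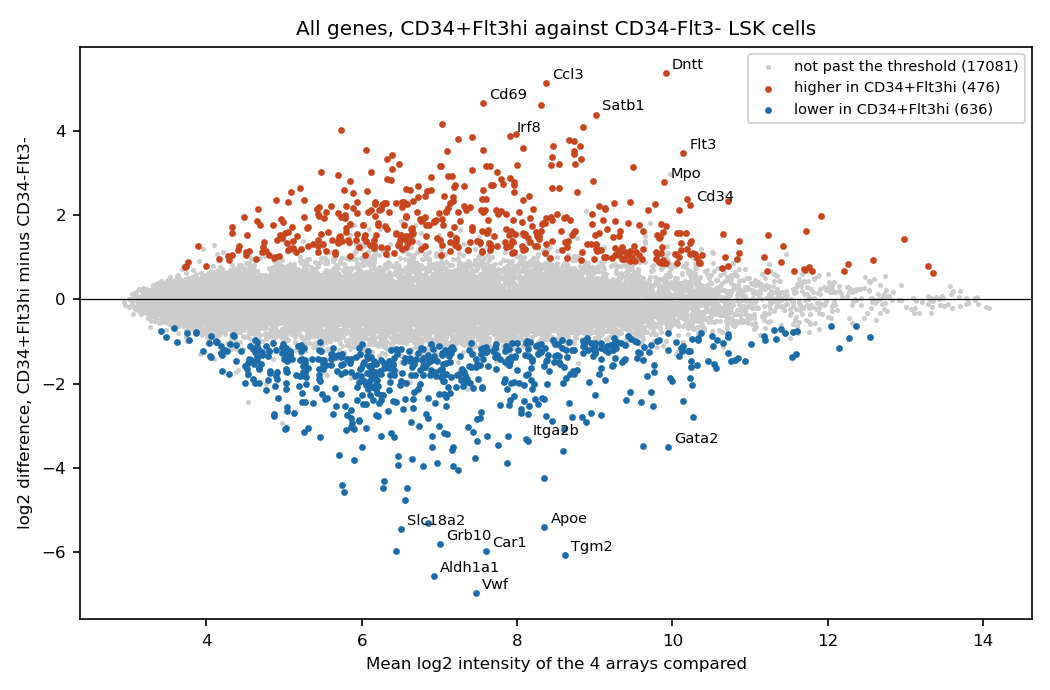
Difference of each of 18193 genes (vertical axis, log2, CD34+Flt3hi minus CD34-Flt3-) against its mean log2 intensity over the 4 arrays compared (horizontal axis), with genes past the threshold in red (476 rises) or blue (636 falls). Among genes above background at both ends the largest fall named is -6.06 for Tgm2 and the largest rise 5.37 for Dntt, while 143 falls and 63 rises have 1 end below background, where the plotted difference is not a measured size.

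The sort antigens came first as a check of the labels. Cd34 (Entrez gene 12490) read 8.78 and 9.45 in CD34-Flt3- cells, 10.51 and 10.68 in CD34+Flt3- cells and 11.35 and 11.34 in CD34+Flt3hi cells. Flt3 (Entrez gene 14255), the receptor of a cytokine of early progenitors, read 7.65 and 9.16, 8.84 and 9.81, and 12.01 and 11.75 in the same order. Both were highest in CD34+Flt3hi cells and above background in the cells sorted as negative. Across the span Cd34 was 4.70-fold and Flt3 11.1-fold higher, differences of 2.23 ± 0.24 and 3.48 ± 0.45 (SE, n = 2 per group; limma adjusted p = 0.00087 and 0.00215), or 1.89 and 2.59 within code A. Without CD34-Flt3- replicate 1 the Flt3 difference was 2.72, and without its replicate 2 it was 4.23. Kit, the stem cell factor receptor by which all the cells were sorted, read 10.99 and 9.83 against 9.63 and 9.22, a difference of -0.98 (adjusted p = 0.309). The gene of Sca1 was not analysed here.

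Transcription factors of stem cells made up the first group of falls. Of 25 measured genes on this list, 13 fell and 1 rose in CD34+Flt3hi cells, with a median difference of -1.45 (-1.29 within code A). Gata2, a zinc finger factor needed for stem cell survival, read 11.60 and 11.78 in CD34-Flt3- cells and 8.09 and 8.29 in CD34+Flt3hi cells, which is 11.3-fold lower (-3.50 ± 0.27, limma adjusted p = 0.00016). Hoxb5, a homeobox factor whose expression marks long-term stem cells, read 7.59 and 8.01 against 4.14 and 3.85. The latter pair lay below background, so Hoxb5 was at least 9.86-fold lower (adjusted p = 0.00016). Ndn, an imprinted gene that encodes necdin, read 10.52 and 10.26 against 6.53 and 7.07 and fell by 3.59 ± 0.28, although its 7 other probe sets ran from -4.36 to 0.18. Prdm16, which encodes a zinc finger regulator of stem cell maintenance, read 8.08 and 8.25 against 5.69 and 5.74. It fell 5.48-fold (-2.46, limma adjusted p = 0.00103), with other probe sets between -1.53 and -0.01. In all of these genes the groups lay well apart at the probe set read. The other falls were Mllt3 (-3.37), Mecom (-3.07), Myct1 (-2.88), Tcf15 (-2.39), Tal1 (-2.34), Gata3 (-2.08), Hlf (-1.87), Rora (-1.68) and Meis1 (-1.45). The gene that rose was Hmga2 (1.26), which encodes an architectural chromatin protein. Several factors of the same circuits did not pass, with differences of -0.25 for Runx1, -0.23 for Lyl1 and for Lmo2, -0.01 for Fli1, 0.14 for Erg and 0.02 for Bmi1. Without either CD34+Flt3hi array 9 members fell in place of 13, and 13 or 14 fell without any 1 of the other 4 arrays.

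Surface and effector genes of stem cells fell further. Of 31 measured, 24 fell and 0 rose, with a median of -2.55 (-1.91 within code A; -2.02 with values below background set to it). Tgm2, a transglutaminase, read 11.76 and 11.53 in CD34-Flt3- cells and 5.61 and 5.57 in CD34+Flt3hi cells, 66.5-fold lower (-6.06 ± 0.41, limma adjusted p = 0.00011; other probe sets -6.64 to -0.60). Apoe, which encodes the lipid carrier apolipoprotein E, read 11.02 and 11.08 against 5.42 and 5.88, 42.1-fold lower (-5.40 ± 0.35, adjusted p = 0.00011). Neither gene's groups came near each other. Trpc6, a cation channel gene, read 8.01 and 8.11 against 3.43 and 3.56, below background, and was at least 11.8-fold lower. Esam, an adhesion protein of endothelial and stem cells, read 9.58 and 9.38 against 5.94 and 6.12 and was 11.0-fold lower. Among the other falls were the receptor genes Tek (at least 10.9-fold) and Procr (-2.92), Slamf1 (at least 7.18-fold), which encodes the stem cell antigen CD150, Fgd5 (-3.36) and Mmrn1 (-3.24). The integrin gene Itga6 (-1.76), the tetraspanin gene Cd9 (-1.48) and Angpt1 (-1.47), a ligand of Tek, fell less. Alcam (0.59), Slamf6 (0.48) and Neo1 (0.02) were the members with a positive difference, and none of them passed. Leaving out CD34+Flt3hi replicate 1 or 2 left 15 falls each, and leaving out any other array 21 to 25.

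**Figure D2:**
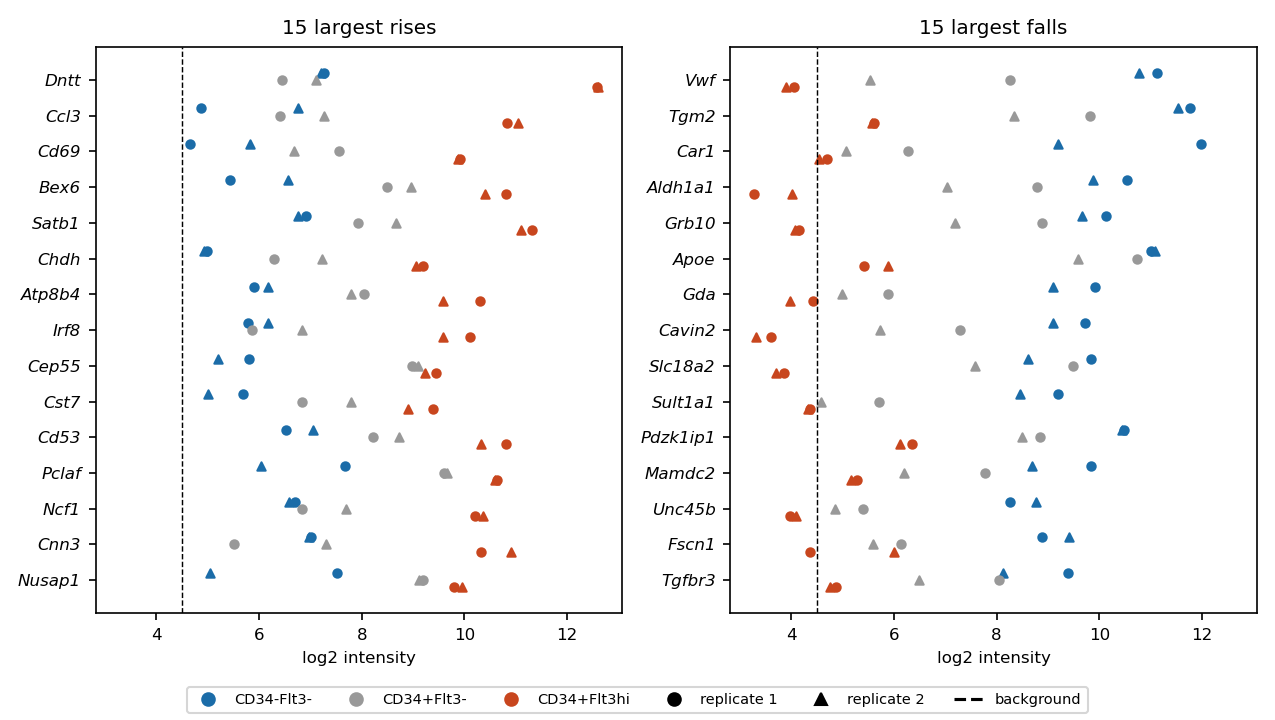
Log2 intensity (horizontal axis) of the 15 largest rises (left) and falls (right) on each of the 6 arrays, with groups by colour, replicates by marker and background as a dashed line. Genes were taken from those past the threshold whose CD34-Flt3- and CD34+Flt3hi arrays do not overlap. They were ordered by the size of the difference with values below background set to it. For Car1, Nusap1 and Ccl3 the CD34-Flt3- arrays lie apart.

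Imprinted growth genes fell in part. Of 13 measured genes on this list 6 fell and 0 rose, and the median was -0.52 (-0.73 within code A). Grb10, an adaptor that restrains growth factor receptors, read 10.14 and 9.67 against 4.14 and 4.07, below background in CD34+Flt3hi cells and at least 42.4-fold lower (limma adjusted p = 0.00017). Its 2 other probe sets differed by -0.03 and 0.02. The maternally expressed noncoding RNA gene Meg3 read 9.37 and 9.31 against 5.78 and 5.38 and fell 13.5-fold (-3.76 ± 0.51, adjusted p = 0.00266), with 10 other probe sets between -4.45 and 0.22. Cdkn1c, the imprinted inhibitor of cyclin-dependent kinases known as p57, read 7.70 and 7.82 against 4.25 and 4.25, at least 9.59-fold lower. The groups stood apart without overlap in these genes, as in every gene past the threshold. Ndn, Phlda2 (-2.02) and Sgce (-1.68) completed the falls, and Igf2 (-0.35), Dlk1 (-0.52) and Igf2r (0.74) did not pass. Without CD34+Flt3hi replicate 1 there were 4 falls, and without replicate 2 there were 5.

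Enzymes and pumps that handle small molecules were the next group. Of 21 aldehyde dehydrogenases, glutathione transferases and sulfotransferases, 8 fell and 0 rose (median -0.30, -0.71 within code A). Aldh1a1, the retinaldehyde dehydrogenase behind the dye assay for stem cells, read 10.54 and 9.89 against 3.28 and 4.02, at least 52.4-fold lower (limma adjusted p = 0.00016). Sult1a1, a phenol sulfotransferase, read 9.20 and 8.45 against 4.37 and 4.32 and was at least 20.1-fold lower. The CD34+Flt3hi arrays of both genes lay below background. The glutathione transferase genes Gstt1 (8.83 and 8.99 against 6.21 and 5.93, 7.18-fold lower) and Gstm5 (9.20 and 8.64 against 6.73 and 7.11, 3.99-fold lower) fell with Aldh1a7 (at least 2.53-fold), Gsta4 (-1.79), Gstm2 (below background in CD34+Flt3hi cells) and Gstm1 (-1.15). These families hold near-identical copies, and probes can be shared between them. Of 23 ABC transporters, 6 fell and 0 rose (median -0.45, -0.48 within code A), led by Abcg3, at least 5.62-fold lower, the drug pump gene Abcb1a, at least 3.51-fold, and Abcg2, the pump that defines the side population, which read 9.68 and 9.10 against 7.29 and 7.46 (4.04-fold lower). Abcb4 (-2.12), Abca5 (at least 2.86-fold) and Abca3 (-1.35) completed the set. Without CD34+Flt3hi replicates 1 and 2 the falls numbered 4 and 4 among the enzymes and 2 and 3 among the transporters.

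Megakaryocyte and platelet genes fell across the span, 15 of 25 measured, while 1 rose (median -1.43, the same within code A). Vwf (Entrez gene 22371), von Willebrand factor of platelets and endothelium, had the largest fall of any named gene. It read 11.12 and 10.78 in CD34-Flt3- cells, 8.25 and 5.53 in CD34+Flt3- cells and 4.06 and 3.90, below background, in CD34+Flt3hi cells, which is at least 87.5-fold lower (limma adjusted p = 0.00052). With the dimmer CD34-Flt3- array alone the bound was 77.6-fold. Slc18a2, the vesicular transporter that loads monoamines such as serotonin into granules, read 9.84 and 8.62 against 3.86 and 3.71, at least 26.5-fold lower and 17.3-fold from the dimmer array. The transcription factor genes Gfi1b and Zfpm1, whose products act with GATA factors in megakaryocytes and erythroid cells, read 8.93 and 8.81 against 6.18 and 6.20, and 9.08 and 8.98 against 6.41 and 6.64. They fell 6.41-fold and 5.68-fold, and the other probe set of Zfpm1 differed by -0.80. The platelet integrin genes Itgb3 (-3.57) and Itga2b (-3.31), the granule chemokine gene Pf4 (at least 7.39-fold), Rab27b (at least 5.02-fold), Gp1bb (at least 1.98-fold), F2r (-1.43), Nfe2 (-1.41), Gp9 (-1.26) and Clec1b (at least 1.29-fold) fell as well, as did Mmrn1 and Cd9, which the list shares with that of stem cell surface genes. Plek, a signalling protein of platelets that other leukocytes also express, rose (1.20). Among genes of late platelet development, Gp6 (-0.13), Treml1 (-0.83) and Ppbp, which lay below background in both groups, did not pass. Without either CD34+Flt3hi array 8 members fell, and without any other array 14 to 16 did. The rise of Plek was lost without CD34-Flt3- replicate 1, either CD34+Flt3- array or either CD34+Flt3hi array.

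The promoter of Slc18a2 is printed to show where the letters of blood lineage motifs lie near the start of a gene with a large fall. It is the RefSeq sequence of build GRCm38.p6 at chr19:59260628-59260927, plus strand, from 250 bases before to 50 after the start, with capitals at 1 GATA-type match (AGATAA, here as its reverse complement TTATCT) and 1 ETS-type match (AGGAAG, here as CTTCCT).
Slc18a2: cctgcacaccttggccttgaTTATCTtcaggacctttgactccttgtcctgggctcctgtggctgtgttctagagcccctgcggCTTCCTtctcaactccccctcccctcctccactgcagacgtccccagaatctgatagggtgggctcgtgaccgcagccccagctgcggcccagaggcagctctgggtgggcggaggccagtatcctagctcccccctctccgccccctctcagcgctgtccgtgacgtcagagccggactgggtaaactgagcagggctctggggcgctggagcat
On either strand AGATAA was found in 3 of 12 promoters of the megakaryocyte genes that fell or rose (25%) and in 6 of 20 promoters of all measured members (30%), against 11.4% of 27025 promoters of the same length. AGGAAG was found in 6 of 12 (50%) and in 11 of 20 (55%), against 35.1% of all promoters. The measured members thus held both motifs at no lower a share than those past the threshold. The promoters of Gfi1b and Zfpm1 held neither run of letters in these windows. Only these exact runs were searched, so variants that differ by a letter were not counted in any promoter. A match is a description of the sequence and not a site of binding.

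Erythroid genes fell in smaller number. Of 27 measured, 11 fell and 0 rose, with a median of -0.92 (-0.58 within code A). Car1, an erythroid carbonic anhydrase, read 11.98 and 9.19 in CD34-Flt3- cells and 4.69 and 4.54 in CD34+Flt3hi cells, 62.8-fold lower (-5.97 ± 0.73, limma adjusted p = 0.00156). The CD34-Flt3- arrays lay far apart for this gene, and its difference was -4.58 without replicate 1 of that group and -7.37 without replicate 2. Aqp1, the red cell water channel, read 8.79 and 8.10 against 4.25 and 4.01 and was at least 15.4-fold lower. Tal1, a master factor of blood formation, read 9.93 and 9.05 against 6.75 and 7.55 (5.07-fold lower, adjusted p = 0.00454). Ermap (-3.88), the erythroid factor genes Klf1 (-3.19) and Gata1 (at least 3.97-fold), Blvrb (-2.10), Icam4 (-1.82) and Car2 (-0.91) fell too. Epor, the erythropoietin receptor, read 7.90 and 6.81 against 6.04 and 6.06, without overlap but not past the threshold (-1.30, adjusted p = 0.151). The CD34-Flt3- replicates 1 and 2 had a mean list level of 1.15 and 0.36 relative to all 6 arrays. Of 4 markers of mature red cells 0 passed, 2 lay below background in both groups, and their summed linear level was between 65 and 91 on every array. The members with the smallest p among them, Alas2 (below background in CD34-Flt3- cells, limma adjusted p = 0.0669) and the globin gene Hba-a2 (0.45), did not pass. There were 3 and 5 erythroid falls without CD34+Flt3hi replicates 1 and 2. Among 17 genes of mast cells, basophils and eosinophils, Gata2 and the mast cell carboxypeptidase gene Cpa3 fell. Of all genes tested, 6.11% passed. Cpa3 read 7.79 and 7.37 against 4.91 and 4.17 (8.24-fold lower), and on the CD34+Flt3- arrays it read 8.88 and 8.29, above both ends of the span.

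**Figure D3:**
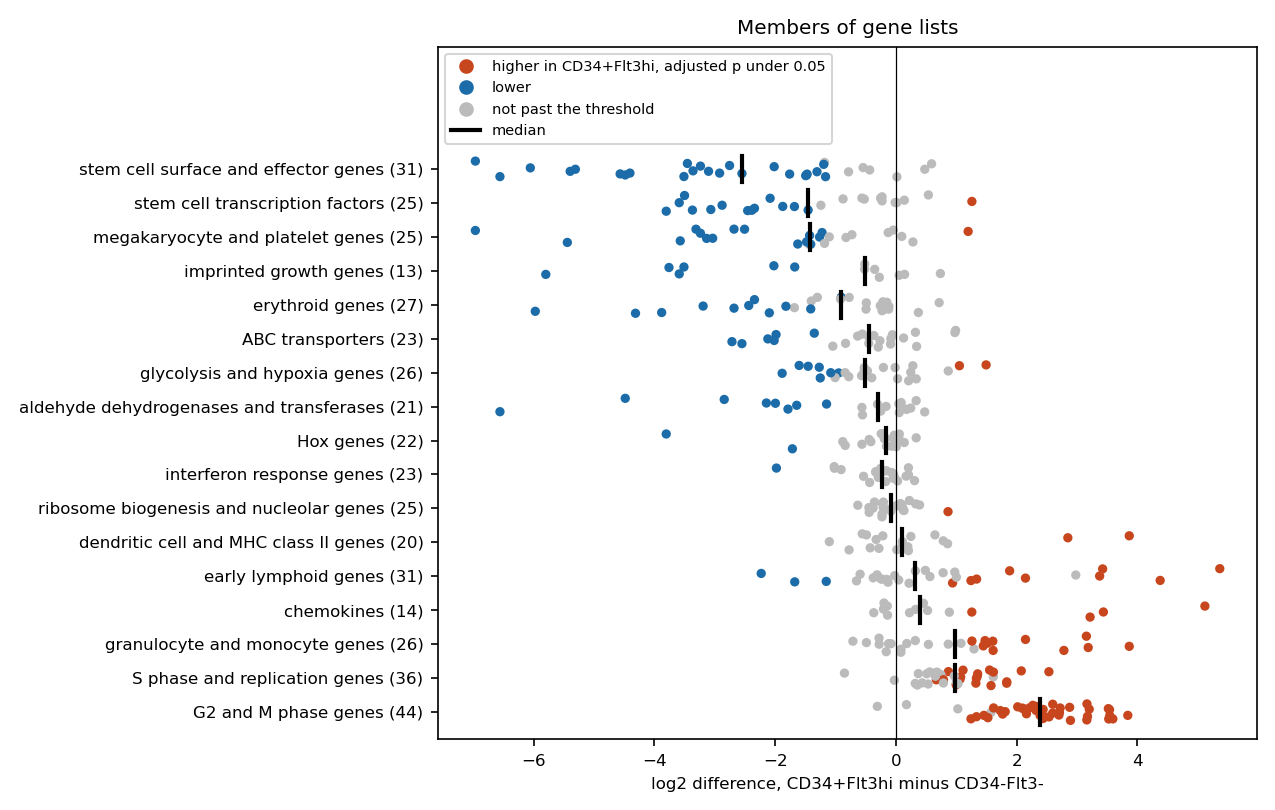
Log2 difference, CD34+Flt3hi minus CD34-Flt3- (horizontal axis), of every measured member of 17 gene lists, 1 row per list with the number measured in brackets, coloured by whether it passed the threshold, with the list median as a black bar. Members of the stem cell and megakaryocyte lists lie mostly to the left of 0 and those of the G2 and M phase list to the right, while medians of the Hox and ribosome biogenesis lists lie near the median of all genes of -0.07.

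Early lymphoid genes split. Of 31 measured, 9 rose and 3 fell, and the median was 0.32 (0.53 within code A). Dntt (Entrez gene 21673), the terminal transferase that adds bases at immune receptor joints, had the largest rise of any named gene. It read 7.26 and 7.20 in CD34-Flt3- cells, 6.44 and 7.11 in CD34+Flt3- cells and 12.59 and 12.61 in CD34+Flt3hi cells, 41.2-fold higher across the span (5.37 ± 0.27, limma adjusted p = 5e-05; other probe sets 4.51 and 4.52). Satb1, a chromatin organiser of lymphoid cells, read 6.91 and 6.75 against 11.32 and 11.09, 20.8-fold higher, with 4 other probe sets between 0.15 and 3.86. Btla, an inhibitory receptor of lymphocytes, read 4.61 and 4.75, near background, against 7.92 and 8.29 (10.7-fold higher). In each of these the CD34+Flt3hi arrays stood alone at the top. Notch1, the receptor that directs the T lineage choice, read 8.27 and 8.06 against 9.95 and 10.15 (3.69-fold higher, adjusted p = 0.00288, and 0.0645 without CD34+Flt3hi replicate 2). The other rises were Cd52 (3.38), the chemokine receptor gene Ccr9 (at least 2.37-fold, from readings of 4.69 and 6.79 in CD34+Flt3hi cells and below background in CD34-Flt3- cells), Sox4 (1.34), Cd27 (1.24) and Tcf4 (0.94). Bcl11b (at least 3.59-fold), a T lineage factor, the lymphotoxin gene Ltb (-1.68) and Foxo1 (-1.15) fell. The genes of the recombinase and of committed B cells did not pass, with differences of 0.98 for Rag2 and 0.32 for Il7r, while Rag1 lay below background in both groups and Ebf1 and Pax5 did in CD34+Flt3hi cells. Ighm, the heavy chain constant region gene, read 11.59 and 5.38 in CD34-Flt3- cells and 11.43 and 11.50 in CD34+Flt3hi cells (2.98, adjusted p = 0.317), so that the CD34-Flt3- arrays disagreed. Of 10 markers of B lineage cells 0 passed, Igll1 (-0.65) and Fcrla (0.51) having the smallest p, with summed linear levels of 524 and 525 against 427 and 421. Without CD34+Flt3hi replicates 1 and 2 the rises numbered 6 and 3 and the falls 0 and 0.

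Granulocyte and monocyte genes rose, 11 of 26 measured, and 0 fell (median 0.97, 0.78 within code A). Irf8, a transcription factor of monocytes, dendritic cells and B cells, read 5.79 and 6.17 against 10.11 and 9.57, 14.6-fold higher (3.87 ± 0.37, limma adjusted p = 0.00049; other probe set 2.28). Csf1r, the macrophage growth factor receptor, read 5.79 and 6.36 against 9.57 and 8.89, 8.91-fold higher, with other probe sets at 0.51 and 2.07. Mpo, the peroxidase of granules, read 8.32 and 8.70 against 11.47 and 11.12, 6.88-fold higher. The groups did not overlap in these genes, as in every gene past the threshold. Mpo on the CD34+Flt3- arrays (10.98 and 11.70) was as high as in CD34+Flt3hi cells. Plac8, a gene of immature myeloid and lymphoid cells, read 10.70 and 11.13 against 12.62 and 12.44 (3.05-fold higher). The granule protease gene Ctsg (3.19), Ly86 (2.15), Nkg7 (1.61), Cd68 (1.52), Cd33 (at least 2.29-fold) and the master factor genes Cebpa (1.48) and Spi1 (1.26) rose as well. Other members of the list did not pass, among them Prtn3 (-0.28), Ms4a3 (-0.49) and Lyz2 (-0.71). Among 11 markers of mature neutrophils and monocytes 1 passed, Csf1r, and 5 lay below background in both groups. Their summed linear level was 287 and 358 against 1010 and 719, and without Csf1r 232 and 275 against 251 and 244. The rises in the granulocyte and monocyte list numbered 5 and 7 without CD34+Flt3hi replicates 1 and 2.

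Smaller sets of innate immune genes passed in part, where 6.11% of all genes tested passed. The oxidase subunit genes Ncf1 (6.70 and 6.58 against 10.21 and 10.36, 12.5-fold higher) and Ncf4 (6.49 and 6.87 against 8.56 and 8.56, 3.68-fold higher) were 2 of 5 measured. Cyba (-0.44) and Cybb, which encode the membrane core of the same enzyme, did not pass, and Cybb lay below background in both groups. Without either CD34+Flt3hi array only Ncf1 passed, and without CD34-Flt3- replicate 1 there were 3 rises. Of 20 dendritic cell and MHC class II genes, Irf8 and H2-Ob, a subunit of the peptide-loading modulator DO, rose, and without CD34-Flt3- replicate 2 there were 4 rises. H2-Ob read 6.02 and 6.71 against 8.97 and 9.46 (7.20-fold higher, adjusted p = 0.00098 by limma). A further H2-Ob probe set was left out of the comparison because it also carries the symbol of another gene. That probe set read 5.04 and 5.79 against 6.12 and 6.53, a smaller distance, and was not tested. H2-Aa (-1.10), H2-Ab1 (-0.22) and Cd74 (-0.28) did not pass. Among 18 Toll-like receptors and their partners, the RNA sensor gene Tlr7, Ly86 and its receptor partner Cd180 (1.08) rose. Tlr7 was at least 3.27-fold higher, with other probe sets at 0.24 and 0.52. Irak3 (-2.32), an inhibitor of Toll-like receptor signalling, fell. Of 14 chemokines 4 rose and 0 fell. Ccl3 read 4.87 and 6.76 against 10.83 and 11.03, 34.7-fold higher (5.12 ± 0.53, adjusted p = 0.00064), and its difference was 4.17 without CD34-Flt3- replicate 1 and 6.06 without the other array of that group. Ccl9 read 6.71 and 7.33 against 11.12 and 9.79, Cxcl2 4.46 and 5.28 against 7.24 and 8.92, and Ccl4 6.38 and 6.83 against 7.67 and 8.06, so that the CD34+Flt3hi arrays were the higher in each, if uneven for Ccl9 and Cxcl2. Cxcl2 did not pass without CD34+Flt3hi replicate 2 (adjusted p = 0.159), and Ccl4, Cd180 and Ly86 did not pass in most fits with 1 array left out.

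**Figure D4:**
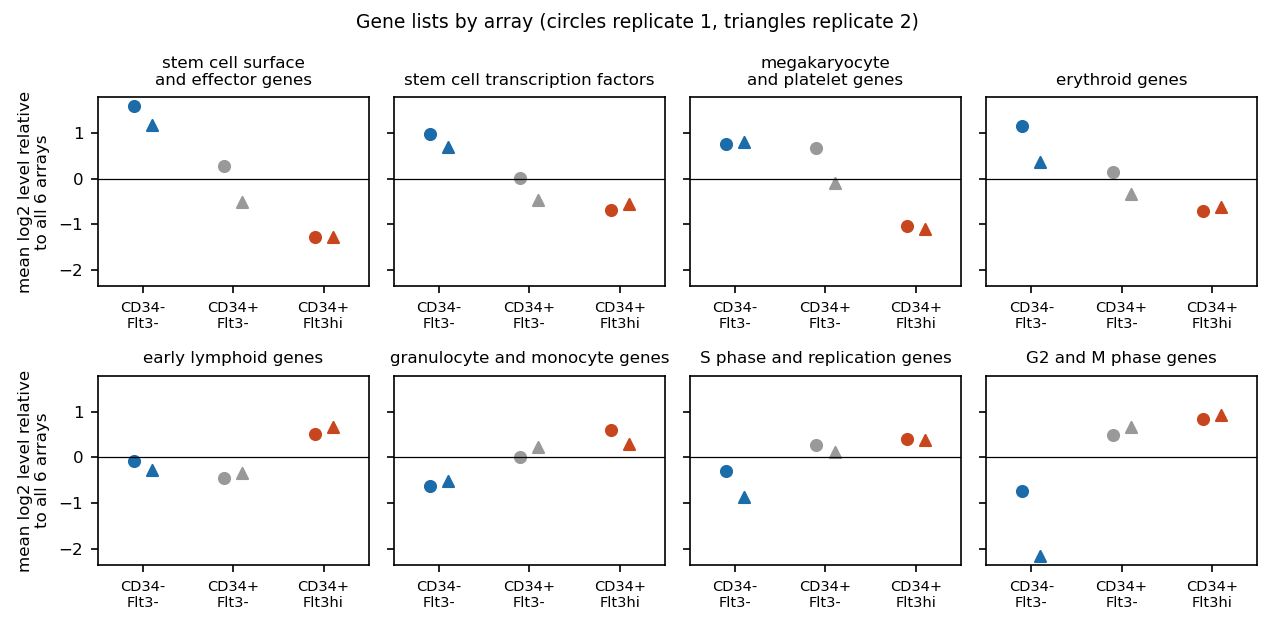
Mean log2 level of 8 gene lists on each of the 6 arrays, relative to each gene's mean over the 6 arrays (vertical axis), by group (horizontal axis), with circles for replicate 1 and triangles for replicate 2. The stem cell lists step down from CD34-Flt3- to CD34+Flt3hi arrays, the G2 and M phase list steps up, and its CD34-Flt3- arrays lie apart at -0.74 and -2.17.

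Genes of G2 and M phase were the list with the most rises, 40 of 44 measured, and 0 fell. Their median was 2.39 (3.23 within code A) against -0.07 over all genes. Set against all 6 arrays, CD34-Flt3- replicates 1 and 2 had a mean list level of -0.74 and -2.17, the CD34+Flt3- replicates one of 0.48 and 0.66 and the CD34+Flt3hi replicates one of 0.84 and 0.93. The CD34-Flt3- arrays were thus lowest and apart from each other. Cep55, which acts in the last cut between daughter cells, read 5.80 and 5.20 against 9.44 and 9.24, 14.3-fold higher (3.84 ± 0.28, limma adjusted p = 0.00016; other probe set 0.73). Ect2, an exchange factor that sets up the cleavage furrow, read 4.78 and 3.80, below background, against 8.0 and 7.66, at least 9.13-fold higher. The chromosome motor gene Kif4 read 5.57 and 5.32 against 7.69 and 7.74 (4.82-fold higher). Incenp, a scaffold of the Aurora B complex, read 8.92 and 8.47 against 10.38 and 10.54 (3.40-fold higher, other probe sets -0.01 to 1.81). Nusap1, a spindle protein, read 7.51 and 5.04 against 9.79 and 9.94, with its other probe set at 0.54. Its difference of 3.59 became 4.83 without CD34-Flt3- replicate 1 and 2.36 without the other array of that group. The cyclin genes Ccna2 (3.53) and Ccnb2 (3.17), the kinase genes Cdk1 (2.02), Aurkb (2.72), Ttk (2.42) and Bub1 (2.44), the topoisomerase gene Top2a (2.38) and the proliferation marker gene Mki67 (2.33) were among the other rises. Pttg1 (-0.31), Ube2s (0.18), Foxm1 (1.03) and Plk1 (1.58) did not pass. A further Foxm1 probe set was left out of the comparison because it also carries the symbols of other genes. It read 6.08 and 3.88 against 8.31 and 8.5, higher on both CD34+Flt3hi arrays, and was not tested. Without CD34+Flt3hi replicates 1 and 2 the rises numbered 10 and 6, without CD34+Flt3- replicates 1 and 2 they numbered 31 and 30, and without either CD34-Flt3- array 41.

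The promoters of 3 genes with the smallest adjusted p among these show a shared run of letters close to the start. TTTGAA is the core of the cell cycle homology region, an element of many late cell cycle promoters, and it is set in capitals on either strand (TTCAAA is its reverse complement). The sequences are RefSeq's for build GRCm38.p6, 300 bases each from 250 before the start to 50 after, at chr19:38054734-38055033 on the plus strand for Cep55, chr3:27153829-27154128 on the minus strand for Ect2 and chrX:100625815-100626114 on the plus strand for Kif4.
Cep55: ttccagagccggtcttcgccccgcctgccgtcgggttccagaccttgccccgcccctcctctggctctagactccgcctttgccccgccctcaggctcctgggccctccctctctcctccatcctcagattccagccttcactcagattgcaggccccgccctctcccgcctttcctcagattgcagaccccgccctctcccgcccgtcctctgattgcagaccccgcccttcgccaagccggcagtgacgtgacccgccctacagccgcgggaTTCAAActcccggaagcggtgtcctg
Ect2: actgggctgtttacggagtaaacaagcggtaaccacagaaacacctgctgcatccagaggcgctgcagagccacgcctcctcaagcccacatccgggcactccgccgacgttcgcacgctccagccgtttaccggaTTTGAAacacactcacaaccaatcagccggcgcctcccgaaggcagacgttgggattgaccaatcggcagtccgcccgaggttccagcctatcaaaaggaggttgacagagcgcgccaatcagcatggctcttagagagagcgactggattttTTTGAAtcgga
Kif4: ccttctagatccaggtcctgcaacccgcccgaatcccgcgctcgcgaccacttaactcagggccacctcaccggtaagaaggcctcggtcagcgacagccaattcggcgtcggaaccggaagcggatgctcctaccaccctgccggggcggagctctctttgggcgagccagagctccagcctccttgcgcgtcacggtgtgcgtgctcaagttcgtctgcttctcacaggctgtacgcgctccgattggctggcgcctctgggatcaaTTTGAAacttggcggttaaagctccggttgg
In these promoters TTTGAA began 25, 40 and 20 bases after the start for Cep55, Ect2 and Kif4, and Ect2 held a further copy at position -114. Among 34 promoters of G2 and M phase genes that rose, 24 held the run on either strand (70.6%), as did 25 of 37 promoters of all measured members (67.6%), against 18.1% of 27025 promoters. Within 50 bases of the start, a window chosen after the positions were seen, 22 of the 34 held it (64.7%) against 4.92% of all promoters.

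Replication genes rose less. Of 36 S phase genes 18 rose and 0 fell (median 0.98, 1.25 within code A). Pola1, a subunit of the polymerase that begins DNA strands, read 7.45 and 6.53 against 9.23 and 8.90 (4.22-fold higher, limma adjusted p = 0.00512; other probe set -0.27), and its partner Prim1 read 9.17 and 8.47 against 10.49 and 10.38 (3.06-fold). Tk1, thymidine kinase, read 7.54 and 6.75 against 9.04 and 8.92 (3.57-fold). Uhrf1, which carries DNA methylation through replication, read 8.48 and 8.07 against 9.81 and 9.88 (2.98-fold, other probe set 0.48). Each was lowest on CD34-Flt3- replicate 2. The helicase genes Mcm2 (1.06), Mcm4 (0.87) and Mcm7 (0.67) rose, as did Mcm10 (1.33), the reductase gene Rrm2 (2.53) and Ccne2 (at least 2.64-fold). Pcna (0.53), Mcm3 (0.37) and Mcm6 (0.68) did not pass. This count was the least steady of the large lists, at 0 without CD34+Flt3hi replicate 1, 1 without its replicate 2, and 29 and 14 without CD34-Flt3- replicates 1 and 2.

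Regulators of the cell cycle moved singly, where 6.11% of all genes tested passed. Among 16 inhibitors and Rb family genes, Cdkn1c fell, as given above, and Cdkn2c, an inhibitor of Cdk4 and Cdk6, rose from 6.76 and 5.79 to 8.23 and 8.57 (4.36-fold; limma adjusted p = 0.0829 without CD34+Flt3hi replicate 2). Cdkn1a (0.38), Cdkn1b (0.30) and Rb1 (-0.43) did not pass. Mycn, a Myc family factor, read 10.10 and 8.70 against 6.63 and 6.76 and fell 6.52-fold (-2.70, limma adjusted p = 0.00417; 2 other probe sets -0.23 and -0.13), whereas Myc differed by 0.29 and did not pass. Ccnd3 (-1.24) and Ccnd2 (-0.74) fell and their partner kinase gene Cdk6 (0.87) rose, all 3 without passing once either CD34+Flt3hi array was left out. Ccnd2 and Cdk6 had adjusted p of 0.044 and 0.0447, and 0.105 and 0.109 without the intensity trend of the fit.

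Genes of chromatin and DNA methylation gave 8 rises and 1 fall among 23 measured (median 0.41, 0.81 within code A). Besides Satb1, Hmga2 and Uhrf1, the rises were Hells (1.68), the methyltransferase genes Dnmt3a (1.58) and Dnmt1 (1.01), Ezh2 (0.87), a Polycomb methyltransferase, and Hmgb2, which read 10.66 and 10.28 against 12.05 and 11.94 (2.88-fold higher, limma adjusted p = 0.00143). Cbx7, a Polycomb reader of stem cells, read 6.93 and 7.03 against 4.99 and 4.83 (-2.07), with other probe sets at -0.04 and 0.11. The other Polycomb genes measured did not pass, among them Ezh1 (-0.98), Suz12 (0.59), Eed (0.68) and Ring1 (-0.35). Without either CD34+Flt3hi array 2 of these genes rose.

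Receptors and signalling genes changed in both directions, where 6.11% of all genes tested passed. Of 33 cytokine receptors 6 rose and 3 fell (median 0.08). Without CD34+Flt3hi replicates 1 and 2 the rises numbered 4 and 6 and the falls 2 and 1, and without CD34-Flt3- replicate 2 there were 8 rises and 5 falls. The interleukin 1 receptor gene Il1r1 read 6.96 and 7.33 against 10.38 and 10.34, 9.28-fold higher (limma adjusted p = 0.00016; other probe set -0.03), and Ifngr2 (2.56), Il6ra (2.30) and Il10ra (at least 2.28-fold) rose with Flt3 and Csf1r. Tie1, a receptor of endothelial and stem cells, read 7.18 and 7.61 against 4.57 and 4.51 (7.24-fold lower), and Tek and Tnfrsf1b (-1.26) fell too. Of 14 feedback inhibitors of cytokine signals 2 fell, Socs2 (8.89 and 8.12 against 5.53 and 5.47, 8.02-fold lower) and Cish (8.66 and 8.56 against 6.49 and 6.5, 4.33-fold lower), both also without any 1 array. The 5 other probe sets of Socs2 ran from -3.65 to 0.37. Of 21 TGF-beta and BMP genes, the co-receptor gene Tgfbr3 (9.39 and 8.13 against 4.88 and 4.75, 15.4-fold lower), Ltbp3 (-1.27) and Eng (-1.16) fell, of which Tgfbr3 alone passed without either CD34+Flt3hi array. Among 20 Wnt genes the receptor genes Fzd3 (at least 3.26-fold), Fzd8 (-1.65) and Fzd7 (-1.45) fell, and none of the 3 passed without either CD34+Flt3hi array. The other probe sets of Tgfbr3, Fzd8 and Fzd7 differed by -0.59, -0.12 and 0.46, and those of Fzd3 ran from -1.42 to 0.20. Notch1 was the only 1 of 18 Notch genes to pass, against 6.11% of all genes tested. Tcf4 (9.29 and 9.55 against 10.36 and 10.35, limma adjusted p = 0.0347) was the only 1 of 7 E protein and Id genes. The Tcf4 difference was 0.81 without CD34-Flt3- replicate 1 and 1.07 without replicate 2 of that group. The Notch list had 1 rise and 2 falls without CD34-Flt3- replicate 1 and 2 rises without its replicate 2. Hes1, a Notch target, read 6.64 and 10.19 on the CD34-Flt3- arrays, which is wider than its distance to the CD34+Flt3hi readings of 5.26 and 7.32 (-2.12, adjusted p = 0.315).

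Of 22 Hox genes measured, Hoxb5 and Hoxa10 fell and 0 rose, where 6.11% of all genes tested passed. The list median was -0.16, and 8 members lay below background in both groups. Without CD34-Flt3- replicate 2 there were 5 falls, and without either CD34+Flt3hi array 1. Hoxa10 read 6.25 and 6.0 against 4.33 and 4.50, at least 3.09-fold lower (limma adjusted p = 0.0269; other probe set 0.08), and did not pass without either CD34+Flt3hi array. Hoxa9, a factor common in early progenitors, differed by 0.05 and Hoxb4 by -0.56, and neither passed.

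Of 35 adhesion and homing genes 4 rose and 6 fell, and 25 did not pass (median -0.18), where 6.11% of all genes tested passed. Without CD34+Flt3hi replicates 1 and 2 the rises numbered 3 and 2 and the falls 3 and 3, and without CD34-Flt3- replicate 1 there were 6 rises. Cd48, the ligand absent from the surface of long-term stem cells, read 7.07 and 7.26 against 10.67 and 10.30, 9.99-fold higher (limma adjusted p = 0.00016). The leukocyte integrin gene Itgal read 5.46 and 5.39 against 7.32 and 7.91 (4.56-fold, other probe set -0.44), and Cd44 (1.57) and Ccr9 rose with it. Itgb3 read 8.99 and 8.91 against 5.48 and 5.28 (11.9-fold lower, other probe set -0.42). Esam, Jam2 (at least 2.58-fold), Itga6, Robo4 (-1.49) and Jam3 (at least 1.95-fold) fell too. Of 23 actin and tropomyosin genes, Cnn3, a calponin, read 7.01 and 6.98 against 10.32 and 10.92 (12.4-fold higher, other probe sets 0.26 to 4.06). Tpm4 read 7.57 and 7.43 against 9.62 and 9.42 (4.06-fold higher). Fscn1, which bundles actin, read 8.89 and 9.42 against 4.37 and 6.01 (15.6-fold lower), with a difference of -3.15 without CD34+Flt3hi replicate 1, -4.78 without its replicate 2 and -0.75 to -0.11 at its 3 other probe sets. Capg (-1.34) fell and Lcp1 (0.70) rose, and the other 18 did not pass. Without either CD34+Flt3hi array 2 of these genes rose and 1 fell.

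Among the lists of energy metabolism and stress, glycolysis and hypoxia held the most calls, where 6.11% of all genes tested passed. Of 26 glycolysis and hypoxia genes 7 fell and 2 rose (median -0.52, -0.28 within code A). The aldolase gene Aldoa (11.41 and 11.56 against 9.98 and 10.09, 2.74-fold lower) fell. Aldoc fell too (8.64 and 8.92 against 6.95 and 6.84, 3.69-fold lower), with its other probe set at 0.22. So did the phosphofructokinase genes Pfkm (-1.27) and Pfkl (-0.95), the glucose transporter gene Slc2a3 (-1.60), Ldhb (-1.25) and Eno2 (at least 1.34-fold). Egln3 (1.49) and Pgam1 (1.05) rose, and Hif1a (0.34), Pgk1 (-0.01) and Ldha (-0.53) did not pass. Of the 7 falls, 2 and 1 were called without CD34+Flt3hi replicates 1 and 2, and for Slc2a3 other probe sets ran from -1.60 to 0.30. Foxo1 and Sod1 (-0.64, other probe sets -0.76 to 0.80) fell among 20 FoxO and antioxidant genes. Bcl2 (1.22) and Bmf (1.25, other probe sets -0.24 and -0.19) rose among 14 Bcl2 family genes. Single genes passed in 4 further lists: Nop58 (0.86) of 25 ribosome biogenesis genes, Pdia4 (1.54) of 19 chaperones, Iigp1 (-1.98) of 23 interferon response genes and Egr1 (-1.16) of 20 immediate early genes. These counts moved with 1 array. Without CD34-Flt3- replicate 1 there were 6 falls among the immediate early genes and 3 rises and 1 fall in the Bcl2 family. Without its replicate 2 there were 4 falls among the interferon response genes, 2 rises and 2 falls among the chaperones and 0 calls in ribosome biogenesis. Of the 8 genes just named 0 passed without either CD34+Flt3hi array.

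Genes outside the lists completed the largest changes. Cd69, an early activation antigen that holds lymphocytes in tissues, read 4.65 and 5.82 against 9.91 and 9.86, 25.2-fold higher (4.65 ± 0.41, limma adjusted p = 0.00034). Bex6, of the brain-expressed X-linked family, read 5.44 and 6.57 against 10.82 and 10.40 (24.3-fold), and Chdh, choline dehydrogenase, 4.98 and 4.94 against 9.19 and 9.05 (17.9-fold). In each the CD34+Flt3hi arrays lay far above the CD34-Flt3- arrays, and for Bex6 the CD34+Flt3- arrays, at 8.49 and 8.97, were nearer to the former. The flippase family gene Atp8b4 (15.1-fold), the protease inhibitor gene Cst7 (13.8-fold), the tetraspanin gene Cd53 (13.7-fold) and Pclaf (13.6-fold), whose product binds the replication clamp, followed. Pclaf read 7.66 and 6.03 on the CD34-Flt3- arrays, and its difference was 2.95 without replicate 2 of that group and 4.58 without replicate 1. Other probe sets of Pclaf ran from -0.26 to 2.54, and those of Atp8b4 and Cd53 differed by 0.43 and 1.28. Among the falls, the guanine deaminase gene Gda, which the list of stem cell genes also holds, read 9.93 and 9.09 against 4.43 and 3.97, at least 32.2-fold lower. Cavin2, a coat protein of caveolae, read 9.73 and 9.11 against 3.61 and 3.31, at least 30.2-fold lower. Pdzk1ip1, a small membrane protein gene beside Tal1, read 10.48 and 10.44 against 6.34 and 6.13 (18.7-fold lower, adjusted p = 1e-04; other probe set -3.37). Mamdc2 (9.84 and 8.68 against 5.28 and 5.16, 16.5-fold lower) and Unc45b, a myosin chaperone gene (8.27 and 8.77 against 3.97 and 4.10, at least 16.2-fold lower), had the next largest falls.

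Markers of cells that a bone marrow gate could still hold were mostly low, and few passed, where 6.11% of all genes tested did. Of 10 T and NK cell markers, Thy1, which stem cells also carry at a low level, fell from 6.67 and 6.89 to 5.20 and 5.30, and the summed linear level of the others was 303 and 410 against 326 and 315. Tie1 and Kdr (7.59 and 6.94 against 5.52 and 5.43) fell among 10 endothelial markers (1 fall without either CD34+Flt3hi array), whose summed level was 1063 and 1124 against 1095 and 1332, and Cdh5 lay below background in both groups. Of 11 stromal markers, Pdgfrb rose (5.87 and 6.19 against 8.36 and 8.03, 4.49-fold, limma adjusted p = 0.00246) and Col1a2 fell (-1.65), with summed levels of 396 and 566 against 682 and 592. The part of these cell types in the results was not tested.

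The CD34+Flt3- arrays placed each change along the span. A place of 0 means that the CD34+Flt3- mean equals the CD34-Flt3- mean and 1 that it equals the CD34+Flt3hi mean. The group shares its fit with both ends and places use both end means, so they are a description with no test. A place also rests on the mean of CD34+Flt3- replicates 1 and 2, which lay apart in some lists. Relative to all 6 arrays, their mean list levels were 0.66 and -0.10 for megakaryocyte genes and 0.28 and -0.52 for stem cell surface genes. For G2 and M phase genes they were 0.48 and 0.66, and for early lymphoid genes -0.45 and -0.34. Places in the former lists thus depend on the array used. The CD34+Flt3- mean lay between the ends for 406 of the 476 rises and 557 of the 636 falls, with median places of 0.67 and 0.72. It lay nearer to CD34-Flt3- cells for 36.6% of the rises and 21.4% of the falls. The lists differed. Rises in G2 and M phase genes had a median place of 0.88 and those in S phase genes 0.77. Rises in early lymphoid genes had a median place of 0.20, from -0.37 for Notch1 and -0.08 for Dntt to 0.45 for Cd52 and 0.71 for Cd27. Falls in megakaryocyte genes had a median place of 0.155, with F2r at -0.06, Cd9 at 0.10 and Zfpm1 at 0.17, while 6 of the 15 lay between 0.47 and 0.66, among them Gfi1b, Nfe2, Itgb3 and Mmrn1. Where an end lay below background a place is nominal. Without such genes the medians were 0.17 over 9 megakaryocyte falls, 0.20 over 8 early lymphoid rises and 0.88 over 39 G2 and M phase rises. Falls in stem cell transcription factors (0.68) and surface genes (0.59) lay further along. Among granulocyte and monocyte genes, Nkg7 (1.34) and Mpo (1.02) lay past the CD34+Flt3hi mean and Ctsg (0.95) just short of it, whereas Ly86 (0.07), Irf8 (0.10) and Cebpa (0.18) lay near the CD34-Flt3- mean.

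**Figure D5:**
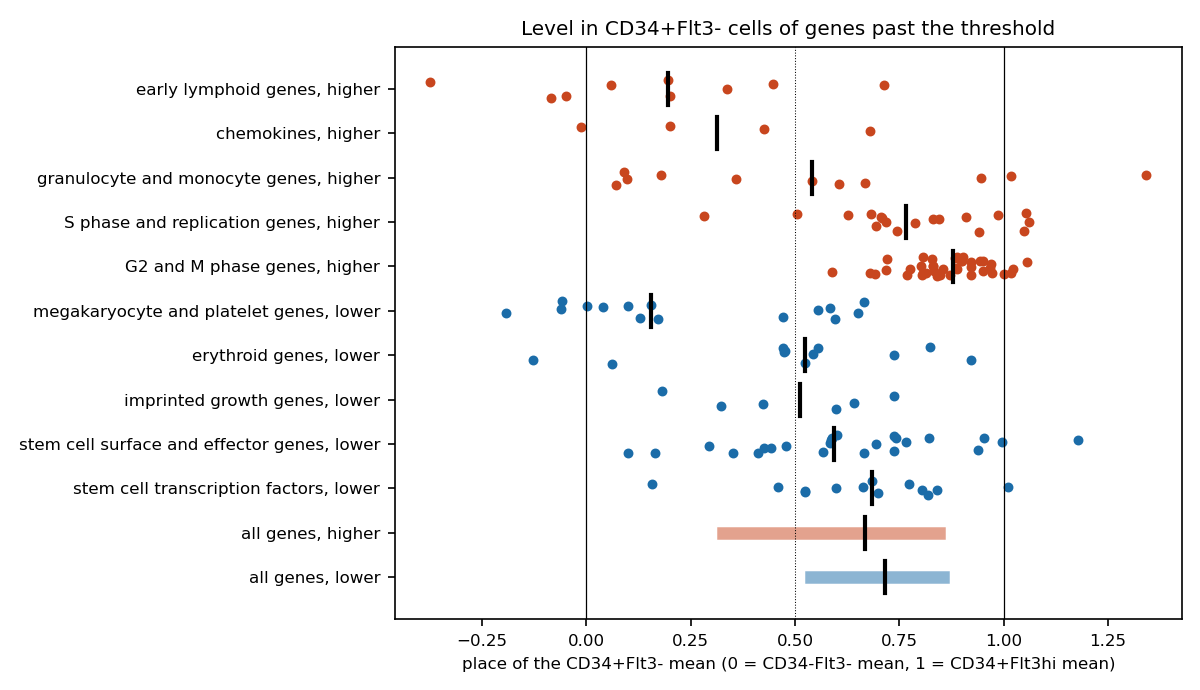
Place of the CD34+Flt3- mean between the end means (horizontal axis, 0 for CD34-Flt3- and 1 for CD34+Flt3hi) for each gene past the threshold in 10 lists, rises in red and falls in blue, with medians as black bars and, for all genes past the threshold, the middle 50% as a band. Early lymphoid rises spread from -0.37 to 0.71 and megakaryocyte falls from -0.19 to 0.66, and G2 and M phase rises from 0.59 to 1.06.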

How the data were processed

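Affymetrix 3 prime expression arrays were made from 3 sorted LSK populations of mouse bone marrow, 2 arrays each, with 2 rounds of in vitro transcription before labelling, per the labels' protocols. The deposited values are probe set intensities that the authors made with RMA, per the submitters' processing notes. Their range, 6.50 to 24173, was read as a linear scale and log2 was taken. Build and annotation of the authors' processing are not given in the sources used here. Probe sets were named through the platform annotation: of 45101, 34945 carried 1 symbol, 932 several and 9160 none, and 64 were controls. Each gene was read from its probe set with the highest mean over the 6 arrays.

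Group means were fitted over all 6 arrays with limma 3.58.1 in R 4.3.3 (eBayes with an intensity trend), with 3 residual degrees of freedom, and p-values were adjusted over 18193 genes by Benjamini and Hochberg. With 2 arrays a side, the smallest p of an exact permutation test is 0.333. Leaving out 1 array leaves its partner alone, assumed to vary like the other groups. On simulated data the fit recovered 7.46%, 74.6% and 95.5% of genes changed by log2 1, 2 and 3, with 4.07% false calls among its calls. These rates describe the simulated data and do not measure false calls among the real genes. The fit takes a common spread per gene. In the real data the median SD between arrays was 0.24 for the CD34-Flt3- group but 0.13 for the CD34+Flt3hi group. Precision is limited by how few arrays there are.

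The comparison, its genes and the gene lists were chosen with earlier results of these data known. Genes were named by rule: the sort antigens, the 15 largest rises and falls among genes past the threshold whose arrays do not overlap, and up to 4 leading members of every list. Further members were named after their values were seen. Replicate numbers follow accession order and pair nothing, so the block used the title codes. Alternatives changed the block, trend, weights, scaling, dim probe sets, choice of probe set, the arrays in the fit and each array in turn. The symbol of 1 sort antigen is not reported here.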

Additional observations from a re-analysis of the deposited data

How the results depend on the processing

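No gene called both as reported and under another setting changed direction between them. The title code as a replicate block, which fits the lone code C array exactly and so sets 1 CD34-Flt3- array against the others, called 2360 genes (986 higher, 1374 lower), of which 1060 were among the 1112 reported; Kit then passed (-0.87, limma adjusted p = 0.037) while Fzd7 and Ly86 did not. As a random replicate block it called 1256, all 1112 included. Leaving out 1 array gave between 271 and 1918 genes, 108 to 878 higher and 163 to 1040 lower. Averaging probe sets called 932 genes, of which 780 were shared. Without x or s probe sets Bmf read -0.19 and Slc2a3 0.30, neither past the threshold (adjusted p = 0.746 and 0.582), and Igll1, not past it as reported either, read 0.14. Of 111 named genes past the threshold, 38 were not called without CD34+Flt3hi replicate 1 and 36 without its replicate 2, fits with fewer arrays, and 19 not with probe sets averaged. With 2 arrays a group, power is low for small changes, and levels near background give bounds.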

Other observations

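Probe sets that carry the symbols of several genes were left out of the comparison, those shared by globin gene copies among them. Of 3 probe sets shared by the alpha globin genes, the first read 3.79 and 3.73 in CD34-Flt3- cells, 5.31 and 5.89 in CD34+Flt3- cells and 4.23 and 7.73 in CD34+Flt3hi cells. In the same order another read 6.03 and 6.76, 6.24 and 6.74, and 6.40 and 8.86, and a beta globin probe set read 8.40 and 7.96, 8.0 and 8.09, and 8.0 and 8.99 (log2, replicates 1 and 2). CD34+Flt3hi replicate 2 was the highest array in these 3 probe sets. In the last alpha globin probe set CD34-Flt3- replicate 2 was highest, at 5.10. These values were not tested.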
